A study of Homo sapiens with 4 samples.

Results

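CD44, CAV1, CAV2, VIM, CDH1 and CDH2 are surface and mesenchymal genes described as depending on BRG1 or BRM in tumour lines that lack these ATPases. Their loci were searched for peaks of V5-tagged BRG1. A peak belonged to a locus when it touched the gene body or the 50 kb on each side, with gene bodies from the GENCODE annotation of GRCh37 (hg19). The windows of CAV1 and CAV2 overlap, so the 6 genes gave 5 loci with 1220 kb in all, and peaks in the overlap were counted once. The loci held 9 of the 24212 peaks of wild-type BRG1 and 14 of the 25371 peaks of BRG1 without its HSA domain.

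CD44 is a cell surface receptor for hyaluronan. CAV1 and CAV2 encode caveolins, membrane proteins that form the coat of caveolae, the flask-shaped pits of the plasma membrane. VIM encodes vimentin, the intermediate filament protein of mesenchymal cells. CDH1 and CDH2 encode E-cadherin and N-cadherin, which join cells to each other and are typical of epithelial and of mesenchymal or neural cells, respectively. BRG1 and BRM are the alternative ATPases of SWI/SNF, a complex that moves nucleosomes and that often acts at enhancers far from gene starts. The HSA domain of BRG1 is a helical stretch that holds actin-related proteins and other subunits.

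SW-13, an adrenocortical carcinoma line, makes neither BRG1 nor BRM. From it the study derived 1 clone that expresses full-length BRG1 (iBRG1) and 1 clone that expresses BRG1 lacking its HSA domain (i∆HSA), and both proteins carried a V5 tag and were induced by doxycycline for 24 h. CUT&RUN, in which an antibody brings a nuclease to a protein so that the DNA beside it is cut out and sequenced, was performed with an antibody to V5 on 2 biological replicates of 300000 cells for each construct. There was 1 peak list per construct and no value per replicate, so replicate error is unknown, a difference between constructs cannot be told apart from a difference between clones or libraries, and all comparisons are descriptions without a test.

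Each peak carried a whole-number score given by the authors. The scale of this score is not stated, so it was read only within a list, together with the percent of that list's peaks that had a lower score. A peak with 1 bp or more in common with any peak of the other construct was called shared, and the others are called iBRG1-only or i∆HSA-only. Distances were taken from the start of the canonical transcript of a gene to the midpoint of a peak, unless the edge is named.

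The DNA under the peaks that carry the account of these loci was read from the GRCh37 plus strand. The first 3 runs are the centres of overlaps between an iBRG1 peak and an i∆HSA peak, the fourth is the centre of the top iBRG1-only peak and the fifth is the centre of the top i∆HSA-only peak. Capitals mark CACGTG (an E-box) in the first run, CCAAT (NFY) and TGTGGT (RUNX) in the second, TGANTCA (AP-1), TGTGGT and CCAAT in the third, and TGTGGT in the fifth, on either strand. None of these letters were found in the fourth run. The centre of the remaining shared pair, 182 kb before CAV2, is not printed, and none of these letters were found in it. The short E-box CANNTG was searched as well but is not marked. Labels name a gene whose window holds the peak, which need not be the nearest gene.
CAV2 shared peak, chr7:116083373-116083572: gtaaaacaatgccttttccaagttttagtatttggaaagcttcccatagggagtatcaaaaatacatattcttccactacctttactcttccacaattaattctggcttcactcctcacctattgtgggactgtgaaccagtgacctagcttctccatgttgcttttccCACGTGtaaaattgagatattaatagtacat
CAV2 shared peak, chr7:115994930-115995129: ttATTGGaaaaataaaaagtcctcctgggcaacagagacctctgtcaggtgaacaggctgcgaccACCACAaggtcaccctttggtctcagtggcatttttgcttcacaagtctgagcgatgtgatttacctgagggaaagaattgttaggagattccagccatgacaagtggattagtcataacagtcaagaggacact
CD44 shared peak, chr11:35236592-35236891: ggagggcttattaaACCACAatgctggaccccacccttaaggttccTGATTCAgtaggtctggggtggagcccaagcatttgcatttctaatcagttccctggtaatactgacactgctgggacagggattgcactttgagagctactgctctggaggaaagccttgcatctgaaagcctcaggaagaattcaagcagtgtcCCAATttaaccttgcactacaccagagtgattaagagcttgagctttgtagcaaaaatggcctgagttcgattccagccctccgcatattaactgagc
VIM iBRG1-only peak, chr10:17258552-17258751: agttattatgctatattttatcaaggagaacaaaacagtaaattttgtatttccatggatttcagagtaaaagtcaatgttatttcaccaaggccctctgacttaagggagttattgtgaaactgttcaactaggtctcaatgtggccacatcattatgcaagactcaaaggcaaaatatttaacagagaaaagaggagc
CAV1 i∆HSA-only peak, chr7:116164314-116164513: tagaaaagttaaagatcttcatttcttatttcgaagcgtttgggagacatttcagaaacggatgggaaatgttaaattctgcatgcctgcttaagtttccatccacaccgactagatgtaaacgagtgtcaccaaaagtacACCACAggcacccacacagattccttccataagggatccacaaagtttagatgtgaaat

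Most of the 6 genes had a peak of each construct in their window, as did most coding genes. At least 1 i∆HSA peak lay in the window of 6 of the 6 genes, where 80.2% of 20163 protein-coding genes had one. At least 1 iBRG1 peak lay in the window of 4 of the 6 genes, namely CD44, CAV1, CAV2 and VIM, where the share of all coding genes was 74.9%. Every peak in the CAV1 window, 1 of iBRG1 and 2 of i∆HSA, also lay in the CAV2 window, so these genes were not counted independently. CDH1 and CDH2 had i∆HSA peaks but no iBRG1 peak within these limits, and both counts were near the shares over all coding genes. With 100 kb on each side the loci held 21 iBRG1 and 22 i∆HSA peaks. A shared peak lay in the windows of CD44 and CAV2, which is 2 of 6 genes beside 33.7% of all coding genes. Pooled over the 5 loci there were 0.738 iBRG1 peaks and 1.15 i∆HSA peaks per 100 kb, and over the windows of all coding genes there were 0.998 and 1.08. The peaks covered 18.4 kb in iBRG1 and 18.2 kb in i∆HSA.

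**Figure D1:**
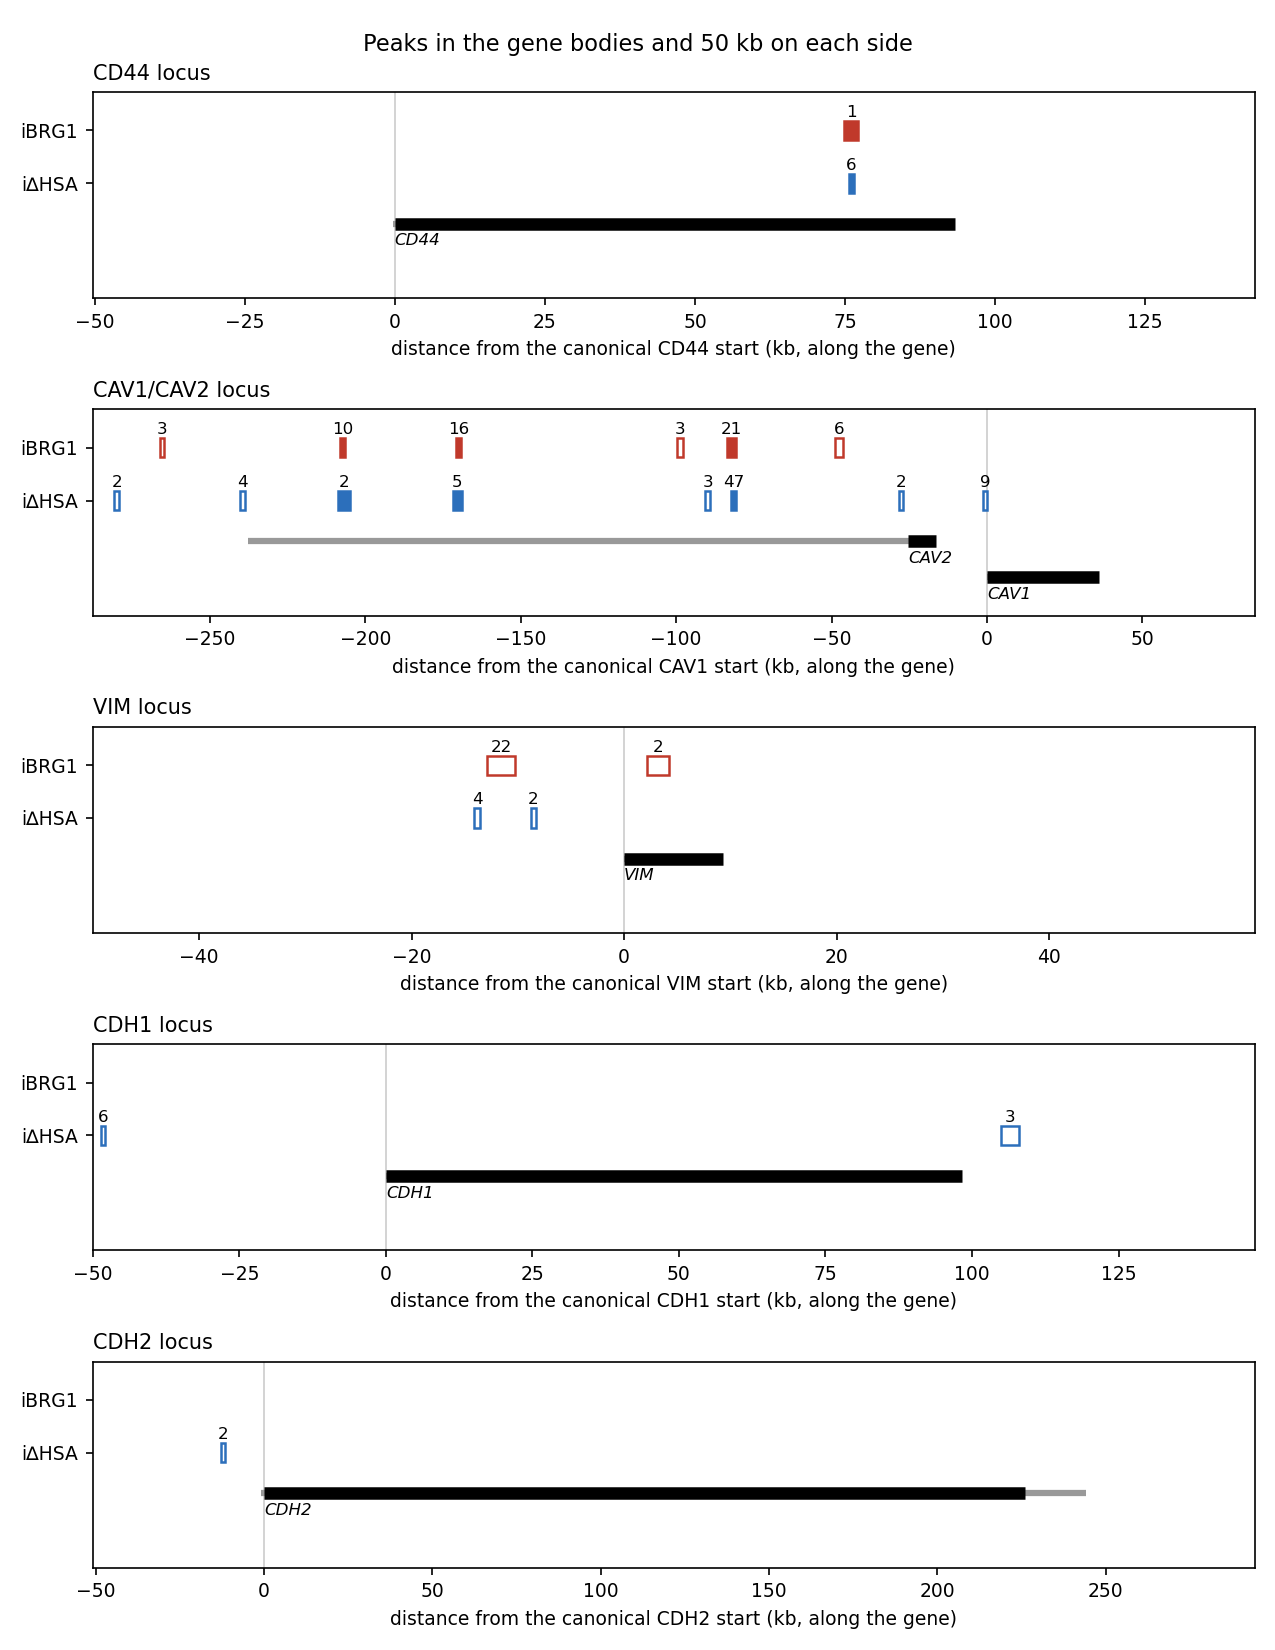
Peaks of iBRG1 (red, upper row) and i∆HSA (blue, lower row) in the 5 loci, drawn along the gene in kb from the canonical transcript start (of CAV1 for the joint caveolin locus), with narrow peaks drawn at a minimum width. Filled boxes are shared and open boxes are found in 1 list, the numbers are the authors' score, the grey line is the whole gene record and the black bar the canonical transcript; the 3 shared pairs of the caveolin locus lie before CAV2, and the CDH1 and CDH2 panels hold only i∆HSA peaks.

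The CD44 locus held 1 peak of each construct, and they overlapped. CD44 spans chr11:35160429-35253949 on the plus strand. The iBRG1 peak lay at chr11:35235594-35237807, was 2214 bp wide and had a score of 1, with 2.94% of iBRG1 peaks lower. The i∆HSA peak lay inside it at chr11:35236577-35236905, was 329 bp wide and had a score of 6, with 67.3% of i∆HSA peaks lower. Thus a peak near the bottom of one list met a peak above the middle of the other. Their midpoints were 41 bp apart and 76.0 kb after the CD44 start, in intron 15 of 17 of the canonical transcript. The iBRG1 peak, but not the narrower i∆HSA peak, also reached exon sequence of CD44 and of the antisense transcript CD44-AS1.

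No peak of either construct lay near the start from which CD44 is canonically transcribed. The nearest iBRG1 peak edge was 51.9 kb before it, just outside the window, at a peak with a score of 0, and the nearest i∆HSA edge was 75.9 kb after it. Of all coding genes, 66.6% had an iBRG1 peak nearer to their start and 81.4% had an i∆HSA peak nearer.

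The joint CAV1 and CAV2 locus held most of the peaks, with 6 of 9 in iBRG1 and 8 of 14 in i∆HSA. CAV2 spans chr7:115927434-116148595, a record of 221 kb that includes long upstream transcripts, while its canonical transcript starts at 116139792. CAV1 spans chr7:116165048-116201233. Both genes lie on the plus strand, and most of the peaks lay in the long record of CAV2 and in intron 2 of 4 of the antisense lncRNA ENSG00000237813. By window, CAV2 had 1.87 iBRG1 and 2.49 i∆HSA peaks per 100 kb, the highest of the 6 genes in both lists. VIM was close to CAV2 in iBRG1, with 1.83. The median coding gene had 0.922 (quartiles 0 to 1.77) and 1.23 (quartiles 0.582 to 2.03).

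The highest-scoring pair of the 5 loci lay 56.8 kb before CAV2 by the iBRG1 midpoint. The iBRG1 peak at chr7:116081567-116084328 had a score of 21, with 97.2% of its list lower. The i∆HSA peak at chr7:116082812-116084133 had a score of 47, with 97.5% of its list lower. This pair thus stood near the top of both lists, and it is the one whose centre holds CACGTG in the first printed run.

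The other 2 shared pairs lay farther from CAV2 and ranked differently in the lists. The nearest coding start to both was that of TES, a focal adhesion protein gene. The iBRG1 edge lay 143734 bp from the TES start for the pair nearer to CAV2 and 106556 bp for the other. At 145 kb before CAV2, the iBRG1 peak chr7:115994327-115995732 had a score of 16 (94.9% lower) and the i∆HSA peak chr7:115993263-115996286 had a score of 5 (58.9% lower). At 182 kb, the iBRG1 peak chr7:115957149-115958525 had a score of 10 (89.0% lower) and the i∆HSA peak chr7:115956353-115960118 had a score of 2 (3.28% lower). All 3 iBRG1 peaks of the shared pairs therefore ranked high in their list, whereas the i∆HSA partners had from 3.28% to 97.5% of their list lower.

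The iBRG1-only peaks of the caveolin locus numbered 3. The one nearest to a caveolin start, chr7:116116134-116118786, lay 22.3 kb before CAV2 with a score of 6 (78.3% lower) and held an AP-1 match. Peaks at chr7:116065352-116067152 and chr7:115898981-115900352, at 73.5 kb and 240 kb before CAV2, each had a score of 3 (51.0% lower). The latter had TES as its nearest coding start, 48388 bp from its edge. The nearest iBRG1 edge was thus 21.0 kb from the CAV2 start and 46.3 kb from the CAV1 start.

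The i∆HSA-only peaks numbered 5 and included the peaks nearest to the caveolin starts. The peak at chr7:116163750-116165076 had a score of 9 (79.8% lower), ended 14 bp before the canonical CAV1 start and reached untranslated exon sequence of other CAV1 transcripts. Only 10.8% of coding genes had an i∆HSA peak nearer to their start. The nearest iBRG1 peak was 44963 bp away from this peak.

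CAV2 also had an i∆HSA-only peak close to its start. It lay at chr7:116136694-116138147 with its edge 1645 bp before the start and a score of 2 (3.28% lower), and 15.7% of coding genes had a nearer i∆HSA peak. The other 3 had scores of 2 to 4 and lay at chr7:116075093-116075372, chr7:115925247-115925925 and chr7:115884929-115885382. TES was the nearest coding start to the last 2 of these, and the last lay in intron 2 of 6 of TES. The i∆HSA peak at CAV1 thus had the highest score among the i∆HSA-only peaks of all 5 loci.

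At VIM, each construct had 2 peaks and none overlapped. VIM spans chr10:17270240-17279592 on the plus strand, with the antisense lncRNA VIM-AS1 beside it. The iBRG1 peak chr10:17257330-17259973 lay 11.6 kb before the VIM start in VIM-AS1, was 2644 bp wide and had a score of 22, with 97.5% of its list lower. It had the highest score of the 9 iBRG1 peaks and lay within 1 kb of the start of an annotated VIM-AS1 transcript. The i∆HSA peaks chr10:17256151-17256728 (score 4, 46.0% lower) and chr10:17261441-17261932 (score 2, 3.28% lower) lay on either side of it, 601 bp and 1467 bp away. Allowing a gap of 500 bp did not make any of them shared.

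The second iBRG1 peak at VIM lay in the gene body at chr10:17272379-17274505, 3.20 kb after the start, and covered coding exon sequence. Its score was 2, with 28.6% of the list lower, and the nearest i∆HSA peak was 10446 bp away. Its edge was 2.14 kb from the VIM start, and 13.9% of coding genes had a nearer iBRG1 peak. Of the 6 genes, VIM had the iBRG1 edge nearest to its canonical start.

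The cadherin loci held 3 peaks, all i∆HSA-only, and none lay in a CDH1 or CDH2 gene body. CDH1 spans chr16:68771195-68869440 on the plus strand. The peak chr16:68722785-68723112 lay 48.2 kb before CDH1, in intron 12 of 15 of CDH3, the gene of P-cadherin, with a score of 6 (67.3% lower). The peak chr16:68876177-68879278 lay after the end of CDH1 and covered the start of TANGO6, the next gene, with a score of 3 (26.0% lower). The nearest iBRG1 peak to CDH1 lay outside the window, with its edge 76.2 kb before the start, at chr16:68692451-68694958 in intron 2 of 15 of CDH3. That peak was shared and had a score of 20, with 96.8% of the iBRG1 list lower. Of all coding genes, 77.1% had an iBRG1 peak nearer to their start than CDH1 did, and this distance was the longest of the 6 genes.

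CDH2 spans chr18:25512843-25757910 on the minus strand, and its window of 345 kb was the widest. It held 1 peak, the i∆HSA peak chr18:25768666-25769765, at 12.1 kb before the start in intergenic DNA with a score of 2 (3.28% lower). The nearest iBRG1 peak edge was 52.7 kb before the start, just outside the window, also with a score of 2. CDH2 had 0.290 i∆HSA peaks per 100 kb, the lowest of the 6 genes in that list.

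**Figure D2:**
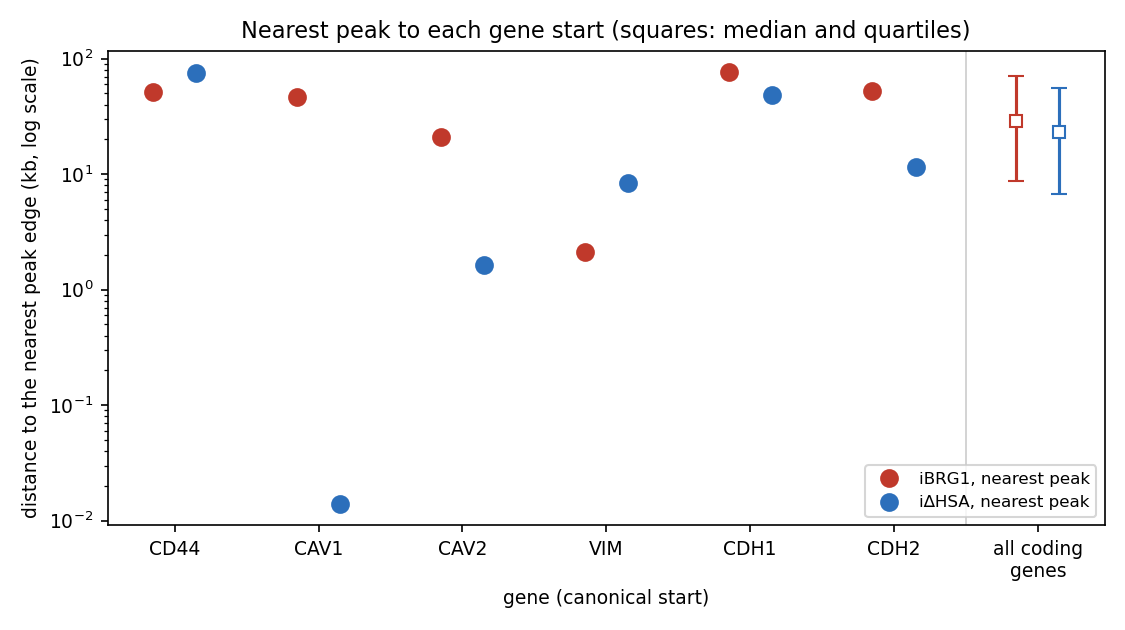
Distance in kb (log axis) from each canonical transcript start to the nearest peak edge of iBRG1 (red) and i∆HSA (blue) for the 6 genes, with squares and bars for the median and quartiles over all protein-coding genes. The i∆HSA edge was nearer at CAV1, CAV2, CDH1 and CDH2, and the iBRG1 edge was nearer at CD44 and VIM.

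Across the 6 starts, i∆HSA edges were nearer at CAV1, CAV2, CDH1 and CDH2, and iBRG1 edges were nearer at CD44 and VIM. The median distance over all coding genes was 29.1 kb (quartiles 8.71 to 70.5) to an iBRG1 peak and 23 kb (quartiles 6.78 to 55.9) to an i∆HSA peak. The gap between the constructs was largest in ratio at CAV1, where the edges were 46.3 kb and 0.014 kb away. All 6 starts lay in GC-rich DNA, with 52.8% GC at VIM to 73.3% at CDH2 in the 500 bp on each side.

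A peak within 1 kb of any annotated transcript start was found for CD44 and VIM in iBRG1, beside 18.2% of coding genes, and for CD44 and CAV1 in i∆HSA, beside 20.9%. With starts of protein-coding transcripts alone, 0 of 6 genes had such an iBRG1 peak (14.7% of coding genes) and CAV1 alone had an i∆HSA peak (17.3% of coding genes). The CD44 calls rested on a retained-intron transcript that starts inside the gene, and the VIM call rested on retained-intron, nonsense-mediated decay and other transcripts that the annotation does not class as protein-coding.

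Of the peaks in the loci, 4 of 9 iBRG1 peaks were shared (44.4%, 95% Wilson interval 18.9 to 73.3, counting error only), beside 20.5% of the whole iBRG1 list. In i∆HSA, 4 of 14 were shared (28.6%, interval 11.7 to 54.6), beside 19.6% of the whole list. Both intervals include the share of their whole list, and 3 of the 4 pairs came from 1 locus. In each of the 4 pairs, 1 peak lay wholly inside the other, which was so for 48.0% of the 4979 overlapping pairs of the whole lists. The inner peak took up 14.9% of the outer one at CD44 and 36.6%, 46.5% and 47.9% in the 3 caveolin pairs. None of the 4 pairs overlapped by at least 50% of both peaks, whereas 59.9% of all shared iBRG1 peaks did.

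**Figure D3:**
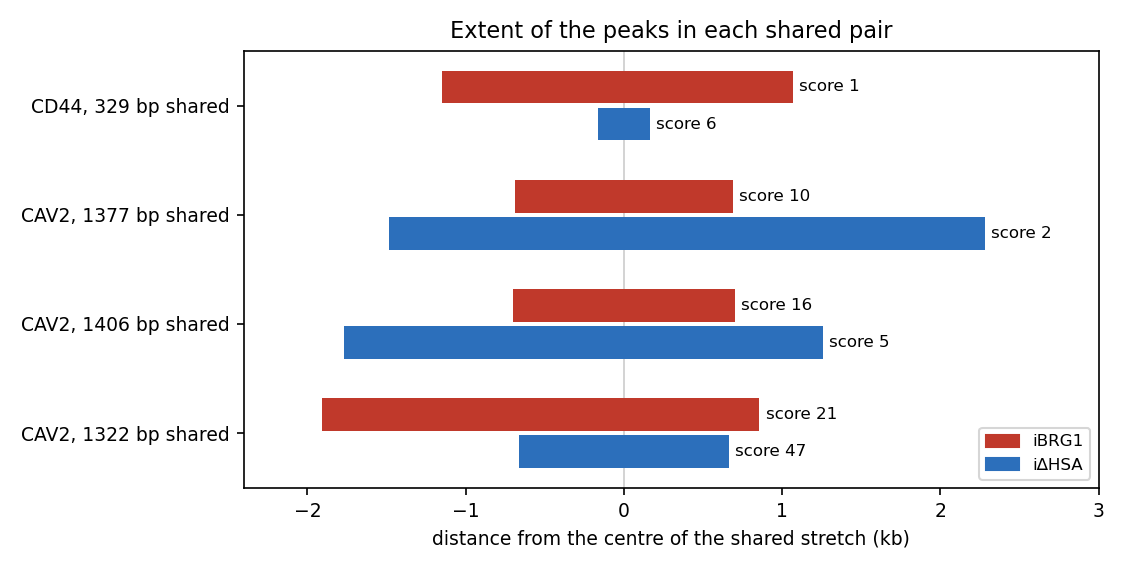
Extents of the 4 shared pairs in kb around the centre of each overlap, with iBRG1 in red, i∆HSA in blue and the authors' score beside each bar. The i∆HSA peak lies inside the iBRG1 peak at CD44 and at the caveolin pair with scores 21 and 47, and the iBRG1 peak lies inside the i∆HSA peak in the other 2 pairs.

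The median score of the iBRG1 peaks lay above that of their list, and the median of the i∆HSA peaks lay slightly below that of theirs. The 9 iBRG1 scores ran from 1 to 22 with a median of 6, where the list median was 2. The 14 i∆HSA scores ran from 2 to 47 with a median of 3.5, where the list median was 4. Scores of at least 5 were held by 5 of 9 and 5 of 14. In the whole lists, 72.8% of iBRG1 and 58.9% of i∆HSA peaks scored under 5. Shared peaks had a median score of 13 in iBRG1 and 5.5 in i∆HSA, and peaks of a single list had a median of 3 in both. Each list also had a shared peak with a low score. The CD44 iBRG1 peak had the lowest score of the 9. The shared i∆HSA peak 182 kb before CAV2 had a score of 2, tied for the lowest of the 14. The shared medians rest on 4 peaks per list, most of them from the caveolin locus.

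**Figure D4:**
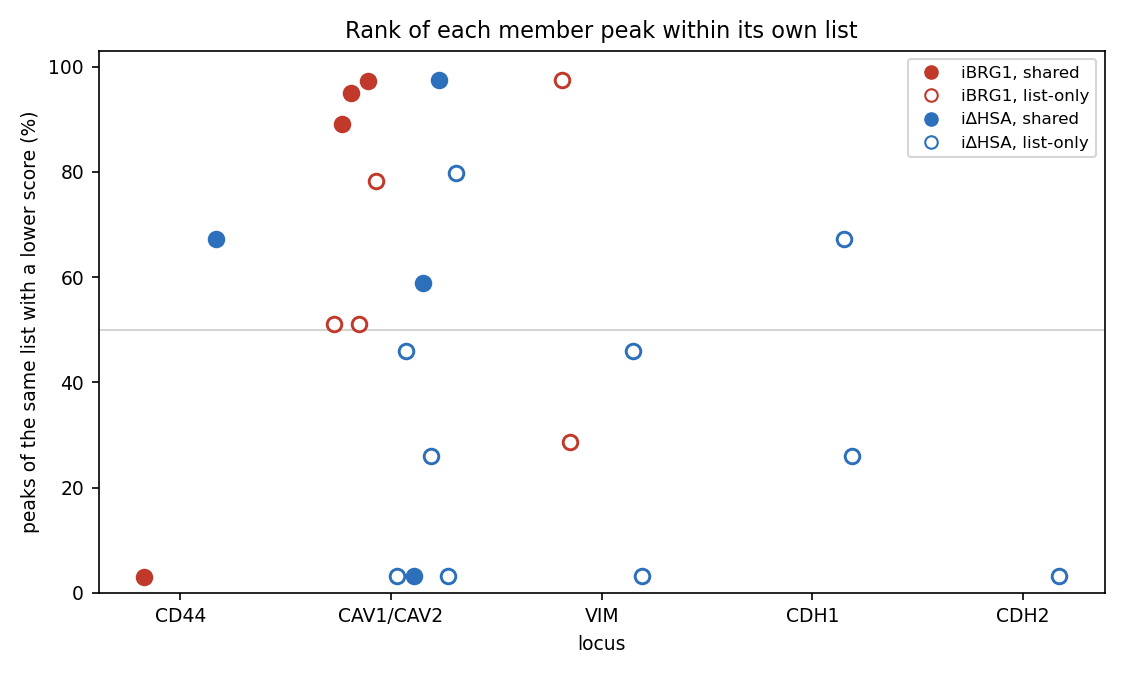
Percent of the same list with a lower score for each of the 9 iBRG1 and 14 i∆HSA peaks, by locus, with filled points for shared peaks. The caveolin pair with scores 21 and 47 and the upstream iBRG1 peak of VIM lie above at least 97.2% of their lists, and the CD44 iBRG1 peak lies at 2.94%.

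Widths also differed within the loci. The median was 2127 bp in iBRG1 (1372 to 2762) and 890 bp in i∆HSA (280 to 3766), where the medians of the whole lists were 1321 and 1318 bp. The 10 i∆HSA-only peaks had a median of 628 bp, and the 4 shared ones 2173 bp. GC content was close to that of the lists, with medians of 39.4% and 39.5% beside 38.6% and 38.2%.

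Motif letters were sought within 100 bp of each midpoint, on either strand. TGANTCA, the site of the AP-1 factors, was found in 2 of 9 iBRG1 peaks (13.0% of the whole list) and 2 of 14 i∆HSA peaks (9.56%). These were the CD44 iBRG1 peak, the iBRG1-only peak 22.3 kb before CAV2, the i∆HSA-only peak 214 kb before CAV2 and the i∆HSA peak 13.8 kb before VIM. The AP-1 letters in the third printed run lay within reach of the iBRG1 midpoint at CD44 but not of the i∆HSA midpoint 41 bp away.

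TGTGGT (RUNX) was found in 3 of 9 iBRG1 peaks (12.5% of the list) and 2 of 14 i∆HSA peaks (12.2%). CCAAT (NFY) was found in 3 (26.1%) and 4 (24.9%), and CANNTG, which includes CACGTG, in 6 (61.3%) and 7 (58.6%). GGAATG (TEAD) was found in 1 iBRG1 peak (12.1%), the one in the VIM body, and in 0 i∆HSA peaks (10.1%). The other letters were rare in both lists. CCGGAA (ETS; 1.95% of the iBRG1 list and 2.11% of the i∆HSA list) and GGGCGG (SP/KLF; 4.63% and 5.46%) were each found in 1 peak, the i∆HSA peak at the TANGO6 start. CACGTG (1.94% and 2.31%) was found in 1 peak, the i∆HSA peak of the top caveolin pair, and TGACGTCA (CRE; 0.116% and 0.173%) in 0. At such shares, 0 or 1 match among 9 or 14 peaks is no result about these loci.

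Genes that work with the members were counted in 7 lists with 42 genes. An iBRG1 peak lay in the window of 31 of them and an i∆HSA peak in 35, beside 74.9% and 80.2% of all coding genes. A peak within 1 kb of any transcript start was found for 7 of 42 in each list, a share somewhat below the 18.2% (iBRG1) and 20.9% (i∆HSA) of all coding genes. The gene lists are short, so their counts are descriptions. The catenins, which tie cadherins to the cytoskeleton, had such a peak in 4 of 5 genes in iBRG1 and 2 of 5 in i∆HSA. JUP, the gene of plakoglobin, had a shared peak there, with an iBRG1 score of 18 (95.9% lower) and an i∆HSA score of 8 (76.9% lower). CTNNA1, the gene of alpha-catenin, had separate peaks with scores of 6 (iBRG1, 78.3% lower) and 9 (i∆HSA, 79.8% lower). The remaining catenin calls in iBRG1 rested on peaks with a score of 2 (28.6% lower).

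Among 3 other classical cadherins, CDH3 had a shared peak within 1 kb of a transcript start, with scores of 16 (iBRG1, 94.9% lower) and 6 (i∆HSA, 67.3% lower), although not at a coding transcript. Among 7 caveola proteins, PACSIN2, a membrane-bending protein, had one in i∆HSA alone, with a score of 3 (26.0% lower). The intermediate filament genes and the hyaluronan synthases with CD44 linkers, 5 genes each, had none in either list. Of 7 mesenchymal transcription factors, SNAI2 and PRRX1 had one in iBRG1 alone, with scores of 3 (51.0% lower) and 1 (2.94% lower). Of 10 epithelial genes, 3 had one, all in i∆HSA, among them the polarity gene CRB3 with a score of 10 (82.3% lower) at a peak shared with an iBRG1 peak outside the 1 kb limit, and the adhesion gene EPCAM with a score of 6 (67.3% lower).

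Peak placement around the starts was also compared with that of about 20160 other coding genes, by the share of occupied 2 kb bins in common among the bins occupied in either gene. ANAPC7 and NFATC4, from 3 tied genes, were most like CAV1 (0.667, 4 of 6 bins), APBB1 and PRDX6, from 4 tied genes, most like CAV2 (0.500, 5 of 10), and CFAP53 (0.500, 4 of 8) and MAGT1 (0.444, 4 of 9) most like VIM. The placements around CD44, CDH1 and CDH2 occupied 0, 1 and 1 bins, too few to be matched. Each named match is the best of many genes over few bins, with no background beside it, and is a description only.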

How the data were processed

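CUT&RUN with an antibody to V5 was performed by the authors on iBRG1 and i∆HSA cells. Groups came from the sample titles. Per the labels, reads were processed with cutadapt, Bowtie2, Picard, SAMtools and MACS2 2.2, and hg19 is the build named. The deposited values are 1 peak list per construct with a score, whose scale the authors do not state. The study's methods name a minimum score, but scores under 5 were held by 72.8% of iBRG1 and 58.9% of i∆HSA peaks as deposited. The study reported fewer peaks for each construct than these lists hold, and the reason for this was not tested. Negative controls were not analysed here. How the replicates were combined is not stated, and a target depth but not the depth reached is given, so sites without a peak may have been missed.

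Positions were made 1-based and matched to GENCODE release 44 on GRCh37 with Python 3.11.15, pandas 2.3.3 and pysam 0.24.0. 0 peaks passed a chromosome end. The overlap, counting and motif steps were tested on simulated data, and the annotation step was not. The 6 genes, the gene lists and the motifs were chosen with earlier results of these data known. All peaks in the windows were named, and in each gene list the up to 2 genes with the highest-scoring peak near a start.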

Additional observations from a re-analysis of the deposited data

How the results depend on the processing

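Peak counts followed the window and the score filter. The 9 iBRG1 and 14 i∆HSA peaks became 21 and 22 with 100 kb on each side, and 5 and 5 with scores of at least 5. The iBRG1 shared percent, 44.4 in the main setting, was 23.8 with 100 kb and 57.1 in gene bodies alone. At or above the list median score it was 25.0, where the whole iBRG1 list had 20.5. In i∆HSA the shared percent was 27.3 with 100 kb, beside 28.6 in the main setting. i∆HSA had 7 in gene bodies alone, of which 57.1% were shared, and 7 at or above the list median score. Canonical transcripts in place of gene bodies, chosen after seeing the data, left 4 and 8, of which 25.0% and 12.5% were shared. With a reciprocal overlap of 50%, the shared percent was 0 in both lists. Genes with a peak near a start fell from 2 to 0 in iBRG1 and to 1 in i∆HSA with coding transcripts. In iBRG1 they were 0 with scores of at least 5 and 1 with scores at or above the list median. Median scores stayed within 3 to 6 (iBRG1) and 3.5 to 5 (i∆HSA) under the window choices. Of 60 alternative values, 39 were classed as unchanged and 21 as moved, including AP-1 and TEAD counts in wider windows. This classing was loose, since an iBRG1 shared percent of 23.8 was classed as unchanged from 44.4. No paired analysis was possible because the lists carry no value per replicate, and so no replicate could be left out.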

Other observations

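The peak names carry a running number that increases with position, up to 340229 in iBRG1 and 286854 in i∆HSA, so the peaks held in the lists are 7.12% and 8.84% of the numbers. The study's methods name the removal of peaks found in negative controls and a minimum score of 5 after peak calling, and whether these steps account for the numbers not listed was not tested. Between the listed peaks that flank the CDH1 window, 27 numbers were used in iBRG1 and none is listed, and 27 were used in i∆HSA, of which 2 are listed. Around CDH2, 60 iBRG1 numbers were used with none listed (386 kb), and 22 i∆HSA numbers with 1 listed (661 kb). Around CD44, 18 iBRG1 numbers and 3 i∆HSA numbers were used, with 1 listed in each. The caveolin locus had 70 and 91 numbers, with 6 and 8 listed, and VIM had 23 in each, with 2 listed in each.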
